A study of Sus scrofa with 8 samples.

Results

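The AP-1 factors are a family of basic leucine zipper (bZIP) transcription factors, and 8 of their genes were examined here: FOS, FOSB, FOSL1, FOSL2, JUN, JUNB, JUND and ATF3. They were taken by name, and each locus is the gene body with 10 kb on either side. All 8 were found among the 16298 named protein-coding genes of the pig autosomes and X chromosome. H3K27ac, the acetylation of histone H3 at lysine 27 that marks active promoters and enhancers, had been profiled by ChIP-seq in pgEpiSC and pEF. The pgEpiSC libraries, numbered 1 and 4, came from pig pre-gastrulation epiblast stem cells labelled as epiblast of embryonic day 10, and the pEF libraries, numbered 1 and 2, from porcine embryonic fibroblasts labelled as fetal, embryonic day 30. Each of the 4 H3K27ac libraries had an input library of its own, and no treatment or genetic change is given for either cell type. It is not given whether the 2 libraries of a cell type come from separate lines, animals or cultures, so the p-values below measure only the spread between these libraries.

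AP-1 proteins pair through the leucine zipper and bind DNA as dimers. JUN proteins can pair with each other or with a FOS protein, whereas FOS proteins need a JUN partner. FOS, FOSB, JUN, JUNB and ATF3 are known as immediate early genes, switched on by serum, growth factors or stress before new protein is made. In fibroblasts AP-1 is known for linking growth factor and stress signals to genes of proliferation and matrix turnover.

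For each H3K27ac library the authors deposited a list of islands, genomic intervals rich in ChIP reads, giving the ChIP and input reads of each. The islands held 29679982 and 38230571 ChIP reads in pgEpiSC 1 and 4, and 42444995 and 46383051 in pEF 1 and 2. Islands were shorter and stood higher over input in pEF: the median island measured 4.8 kb and 4.2 kb in pgEpiSC 1 and 4 against 3.0 kb and 3.2 kb in pEF 1 and 2, and its fold over input was 1.80 and 1.67 against 3.47 and 3.46. Base overlap between libraries (Jaccard index) was 0.559 within pgEpiSC, 0.631 within pEF and 0.183 to 0.190 between types. The 6 pgEpiSC markers checked (POU5F1, SOX2, LIN28A, OTX2, SALL4 and CDH1) were all covered by islands over longer stretches in pgEpiSC, and 4 of 6 pEF markers (COL1A1, COL1A2, COL3A1 and TWIST1) over longer stretches in pEF, with PRRX1 and THY1 not past the threshold. Markers of other cell types carried islands too: the summed length was 48.9 kb and 49.9 kb in pgEpiSC against 13.2 kb and 20.6 kb in pEF over 4 endothelial markers, 96.4 kb and 82.6 kb against 13.6 kb and 18.6 kb over 4 blood cell markers, and 47.6 kb and 56.4 kb against 2.8 kb and 8.8 kb over 3 keratinocyte markers. By limma PECAM1 and CDH5 (endothelial), LCP1 (blood) and LAMB3 (keratinocyte) were longer in pgEpiSC, at adjusted p of 0.0422, 0.0277, 0.00290 and 0.00290, and none of the 11 was longer in pEF. By the same test 31.9% of all genes were longer in pgEpiSC and 10.9% in pEF. Of the others TEK, PTPRC, SPI1 and TP63 did not pass, and KDR, CD34 and KRT5 had no island in any library. The part of other cells in the results below was not tested.

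All 8 AP-1 loci carried H3K27ac islands in all 4 libraries. The islands covered a median of 85.5% and 72.3% of the locus in pgEpiSC 1 and 4, and 69.2% and 69.8% in pEF 1 and 2. The median over all genes was 21.8% and 22.9% in pgEpiSC, and 14.1% and 13.4% in pEF. The share of a window that is covered can depend on gene length, which ran from 1.21 kb at JUN to 57.4 kb at ATF3. All genes were not matched to the members by length, so these medians are not a like comparison. Of the 265 kb in the 8 windows, 112 kb lay in islands of all 4 libraries, 28.2 kb in both pgEpiSC libraries and neither pEF library, and 15.2 kb in both pEF libraries and neither pgEpiSC library. Overlap within the windows was 0.748 between the pgEpiSC libraries, 0.838 between the pEF libraries, and 0.603 to 0.648 between types. JUN was covered least, over 23.6% and 22.6% of its window in pgEpiSC and 40.5% in each pEF library. Whether more cells carried the mark or each cell carried more of it cannot be told apart in such bulk libraries.

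**Figure D1:**
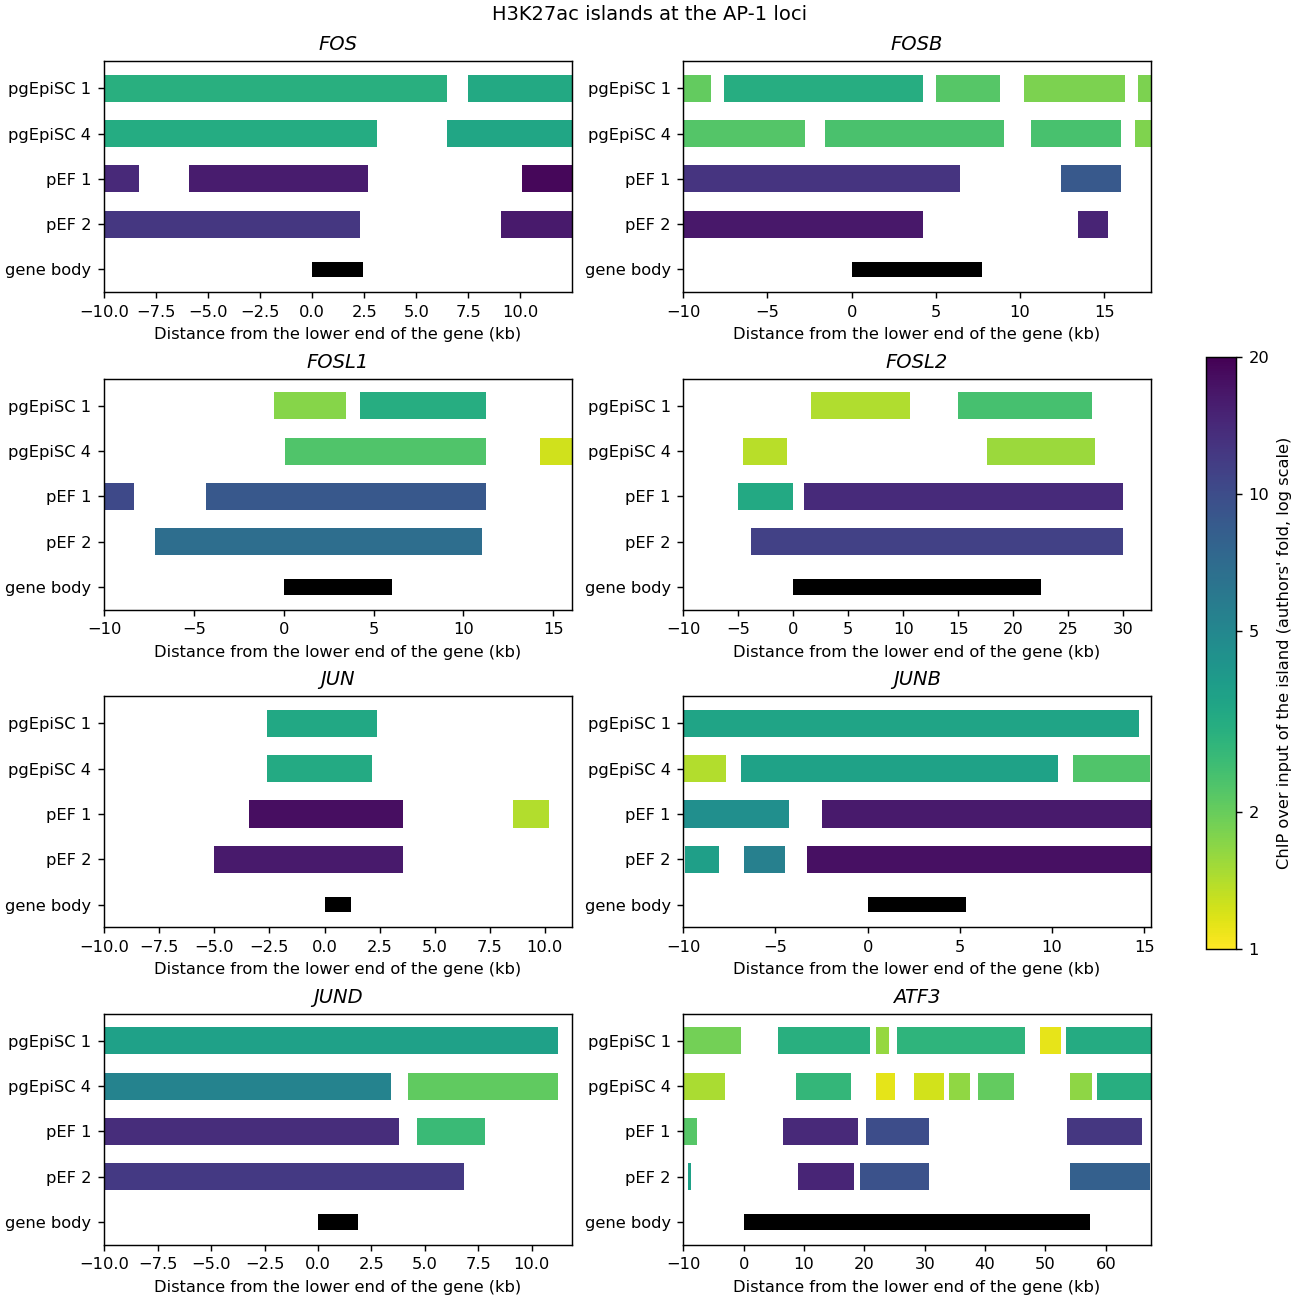
H3K27ac islands at the 8 AP-1 loci, one panel per gene, by distance in kb from the lower-coordinate end of the gene. Each bar is an island, cut at the window's edge, coloured by the authors' fold of ChIP over input on a log scale; the black bar is the gene body. FOSL2 is covered almost throughout the gene in pEF and in separate pieces in pgEpiSC, and pEF islands over the gene bodies are darker at every locus.

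By acetylated length, the kb covered by islands in the window, 0 of the 8 members were longer in pgEpiSC and 0 in pEF by limma on log2(kb + 1) at an adjusted p of 0.05. Over all genes tested, 31.9% were longer in pgEpiSC and 10.9% in pEF. At an unadjusted p under 0.05 there were 2 members toward pgEpiSC (FOS and JUND), against 39.3% of all genes, and 3 toward pEF (FOSL1, FOSL2 and JUN), against 14.1%. The median log2 fold change of pgEpiSC over pEF was 0.17 for the members and 0.46 for all genes. In 5 members both pgEpiSC libraries lay above both pEF libraries (FOS, FOSB, JUNB, JUND and ATF3), as in 52.3% of all genes, and in 3 members both pEF libraries lay above both pgEpiSC libraries (FOSL1, FOSL2 and JUN), as in 21.9% of all genes. Setting the median gene of each library to 0, among the 15689 genes with an island in any library, lowered every log2 fold change by 0.63. On that scale 0 members were longer in pgEpiSC, against 22.8% of genes, and 4 in pEF (FOSL1, FOSL2, JUN and JUNB), against 24.6%. The direction at FOS, FOSB, JUNB, JUND and ATF3 thus turned with the scaling.

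**Figure D2:**
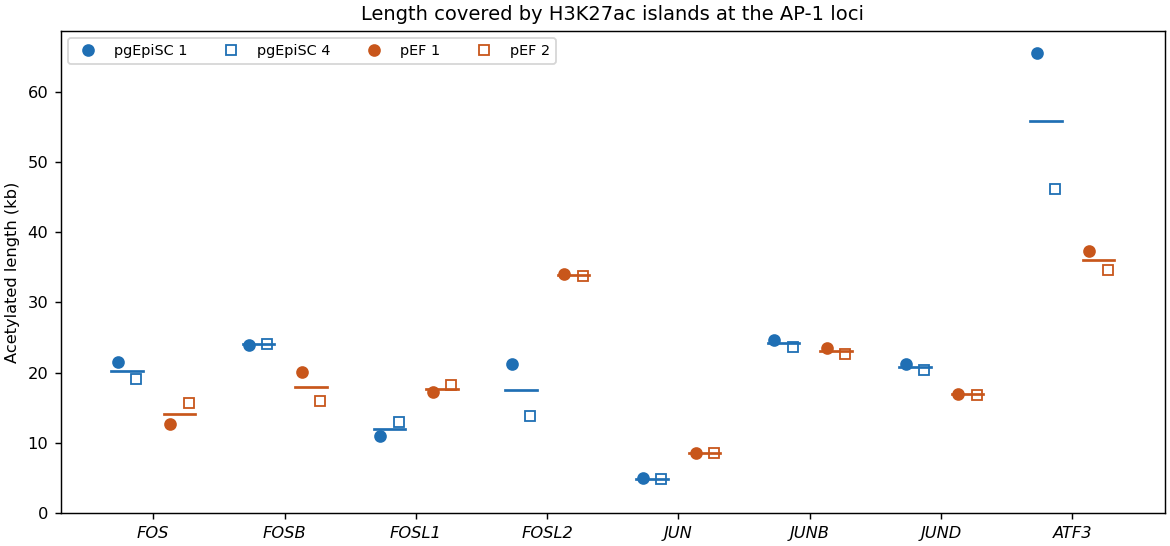
Acetylated length in kb at each AP-1 locus, with a point for each of the 4 libraries and a bar at the mean of each type. JUN has the shortest covered length, at 5.0 kb and 4.8 kb in pgEpiSC against 8.6 kb in each pEF library, and ATF3 the longest summed length.

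By ChIP reads more members passed. Islands of the 4 libraries that overlap were merged into regions, and the 20498 regions with an island of every library were tested by edgeR. Of these, 14 touched an AP-1 locus. Reads were counted only inside each library's own islands, so a difference in island length enters the read counts. Taking for each gene the region with the most bases in its window, 6 of the 8 members had more reads in pEF (FOS, FOSB, FOSL1, FOSL2, JUN and JUNB), while JUND and ATF3 did not pass. A region was counted over its whole length, also where it ran past the window. At FOS 16493 bp of the region's 37.2 kb lay in the window, and at FOSB 19021 bp of 30.8 kb. Over all regions 22.7% were higher in pgEpiSC and 23.4% in pEF. The median log2 fold change was -1.17 for these 8 regions and -0.01 for all. Of all 14 regions, 6 were higher in pEF, 1 was higher in pgEpiSC and 7 did not pass. Over all regions the number higher in pEF was 4790. Without pgEpiSC 1 or pgEpiSC 4 fewer members passed, and fewer of all regions as well. The direction at the 6 members held with any 1 library left out. Their log2 fold change then lay between -1.19 and -0.86 at FOS, -1.79 and -1.41 at FOSB, and -1.25 and -1.08 at FOSL1. It lay between -2.99 and -2.51 at FOSL2, -2.12 and -2.07 at JUN, and -1.28 and -1.08 at JUNB.

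Fold over input was the third measure, the ratio of ChIP to input reads over the window's islands, scaled to library size by the constant in the authors' fold column. All 8 loci were higher in both pEF libraries than in either pgEpiSC library, as were 96.2% of the 13383 genes with an island in every library, while 0.254% of genes had the opposite order. By limma 8 members were higher in pEF on this scale, against 93.3% of genes, and 0.105% of genes were higher in pgEpiSC. The median gene of each library was therefore set to 0 before the test that follows. With centring, limma placed 3 of the 8 members higher in pEF (FOSB, FOSL2 and ATF3), against 5.81% of genes, and 0 higher in pgEpiSC, against 7.35%. At an unadjusted p under 0.05 there were 0 members toward pgEpiSC, against 19.5% of genes, and 6 toward pEF, against 14.7%. The median log2 fold change was -0.75 for the members and 0.06 for all genes. The count of 3 was 0 without pgEpiSC 1 and 0 without pgEpiSC 4, when the number of all genes higher in pEF was also 0, and 2 without pEF 1 or pEF 2.

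**Figure D3:**
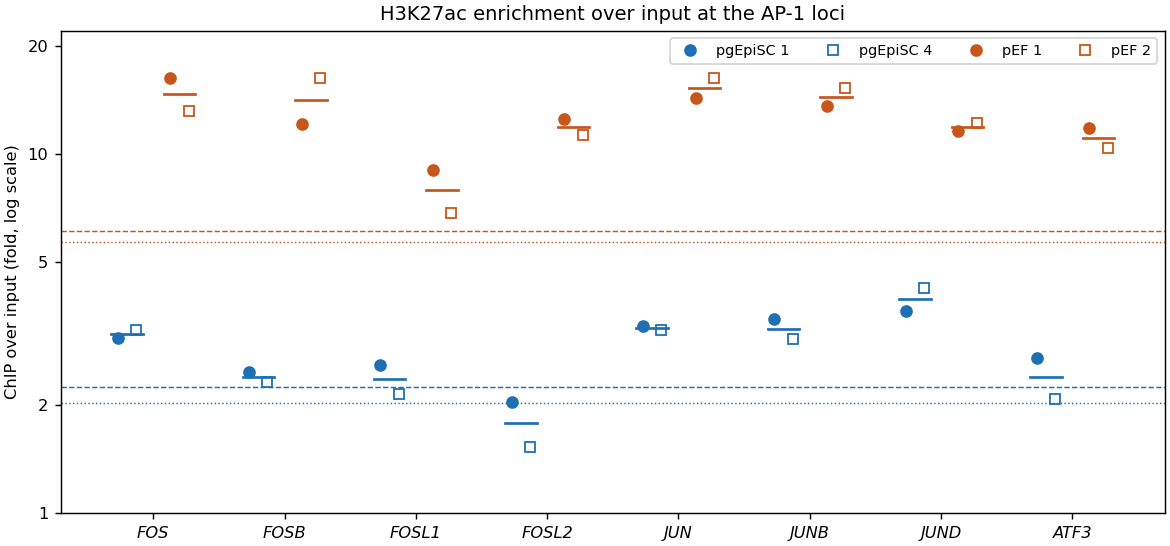
Fold of ChIP over input at each AP-1 locus on a log scale, with a point per library and a bar at the mean of each type; dashed (libraries numbered 1) and dotted lines mark each library's median over genes with an island in all libraries. In pEF all 8 loci lie above the medians of 6.12 and 5.70. In pgEpiSC each FOSL2 point lies under the median of its own library, 2.24 in pgEpiSC 1 and 2.02 in pgEpiSC 4.

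Among the FOS genes, FOSL2, which encodes FRA-2, had the largest differences in reads and in centred enrichment. Its window of 42.5 kb was covered over 21.2 kb and 13.8 kb in pgEpiSC 1 and 4, and over 34.0 kb and 33.8 kb in pEF 1 and 2. The pgEpiSC islands lay in pieces, whereas a single island ran through nearly the whole gene in each pEF library, 29.0 kb and 33.8 kb long. Its region was chr3:110815401-110850400, in the lists' positions raised by 1 to count from 1. It held 1379 and 1220 ChIP reads in pgEpiSC 1 and 4 and 11656 and 11821 in pEF 1 and 2. As normalised read counts (TMM-scaled CPM over the tested regions) these were 76.5 and 54.4 against 443 and 426, and the groups were far apart (log2 fold change -2.73 ± 0.24, SE, edgeR adjusted p = 0.00190). The islands in which these reads were counted were themselves longer in pEF. Fold over input was 2.04 and 1.53 in pgEpiSC against 12.6 and 11.3 in pEF. Among genes with an island in the library, FOSL2 stood at the 39.97 and 12.6 percentile of that ratio in pgEpiSC 1 and 4 and at the 95.4 and 94.3 percentile in pEF 1 and 2. Other members stood higher in pgEpiSC: the median percentile of the 8 was 77.8 and 80.1 there and 95.0 and 96.7 in pEF. JUND stood at 92.0 and 98.6 in pgEpiSC and 93.5 and 96.0 in pEF. At FOSL2 the centred difference was -1.28 ± 0.18 (log2, SE, limma adjusted p = 0.0234), while that of length did not pass (-0.95 ± 0.24, limma adjusted p = 0.0610). With islands under 2-fold enrichment dropped, the difference in length was -3.26 and did not pass either (limma adjusted p = 0.246), and pgEpiSC 4 then had no island at FOSL2.

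FOS, the founding member of the family, was covered over 21.5 kb and 19.1 kb in pgEpiSC 1 and 4 and 12.7 kb and 15.7 kb in pEF 1 and 2, with no overlap between the cell types but a difference that did not pass (log2 fold change 0.49 ± 0.15, limma adjusted p = 0.0897). An lncRNA gene, LOC110261632, lies 1.46 kb from it inside the window. The region over the gene, chr7:98418801-98456000, held 3811 and 5194 ChIP reads in pgEpiSC and 10571 and 14013 in pEF. Its normalised read counts were 211 and 232 against 402 and 505 (log2 fold change -1.03 ± 0.20, SE; edgeR adjusted p = 0.0127). The next region, from position 98456001, did not pass (log2 fold change -0.29, edgeR adjusted p = 0.443). Reads therefore differed over the gene and the side of lower coordinates, where the region runs past the window, with more in pEF. Fold over input was 3.08 and 3.23 in pgEpiSC and 16.3 and 13.2 in pEF, and the centred difference did not pass (-0.75 ± 0.21, limma adjusted p = 0.0709).

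FOSB, a paralogue of FOS that is likewise induced by growth factors, had the largest centred difference after FOSL2. It was covered over 23.95 kb and 24.2 kb in pgEpiSC 1 and 4 and 20.02 kb and 16.0 kb in pEF 1 and 2 (limma adjusted p = 0.110). The pgEpiSC coverage was broken into 5 and 4 islands, that of pEF into 2 in each library. Region chr6:51815001-51845800 held 2378 and 3562 ChIP reads in pgEpiSC and 10191 and 13982 in pEF. The normalised read counts were 132 and 159 against 387 and 504, a log2 fold change of -1.62 ± 0.22 (SE, edgeR adjusted p = 0.00507). The other pair of regions, on the side of higher coordinates, did not pass, with log2 fold changes of -0.37 and 0.39 (edgeR adjusted p = 0.234 and 0.320). Fold over input was 2.48 and 2.31 in pgEpiSC and 12.1 and 16.3 in pEF, with a centred difference of -1.08 ± 0.24 (limma adjusted p = 0.0398).

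FOSL1, which encodes FRA-1, had the lowest fold over input of the 8 in both pEF libraries. Its ratio was 2.59 and 2.15 in pgEpiSC against 9.01 and 6.83 in pEF, and the centred difference of -0.27 ± 0.18 did not pass (limma adjusted p = 0.354). Coverage was 11 kb and 12.97 kb in the pgEpiSC libraries and 17.2 kb and 18.2 kb in pEF (log2 fold change -0.53 ± 0.13, limma adjusted p = 0.0537). Region chr2:6423001-6441400 held 1187 and 1544 ChIP reads in pgEpiSC and 4206 and 3941 in pEF, and passed (log2 fold change -1.16 ± 0.18, SE; edgeR adjusted p = 0.00705). The gene is crowded: CCDC85B, FIBP and CTSW also reach into its window, CCDC85B at 0.614 kb, and reads of the shared islands cannot be assigned to one of them.

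JUN, which can pair with every FOS protein, had the most compact acetylation of the family. A single island of 5.0 kb in pgEpiSC 1 and 4.8 kb in pgEpiSC 4 covered the gene, against 7.0 kb in pEF 1 and 8.6 kb in pEF 2, where pEF 1 had a further island of 1.6 kb. Region chr6:153681401-153690000 held 670 and 840 ChIP reads in pgEpiSC and 4114 and 4492 in pEF. The normalised read counts of 37.2 and 37.5 against 156 and 162 differed far beyond the spread within a type (log2 fold change -2.09 ± 0.18, SE; edgeR adjusted p = 0.00187). Reads were counted only inside islands, which here were longer in pEF. Fold over input was 3.32 and 3.24 in pgEpiSC and 14.4 and 16.3 in pEF. Centred, it did not pass (-0.75 ± 0.22, limma adjusted p = 0.0734), and neither did length (-0.70 ± 0.17, limma adjusted p = 0.0506). Over the alternatives the limma adjusted p of length at JUN ranged from 0.00830 with centring to 0.144 without pEF 2. It passed with windows of 25 kb (log2 fold change -2.16, limma adjusted p = 0.00832), but was 0.0906 with windows of 5 kb.

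JUNB, a JUN paralogue that can act against JUN, was acetylated over nearly the whole window in both cell types. Coverage was 97.5% and 93.6% of the window in pgEpiSC 1 and 4 and 92.9% and 89.3% in pEF 1 and 2, with a log2 fold change in length of 0.07 ± 0.08 (limma adjusted p = 0.542). With coverage this near the whole window, length has little room to differ. Reads did differ: region chr2:66203401-66230400 held 3288 and 4397 in pgEpiSC and 10535 and 12749 in pEF (log2 fold change -1.18 ± 0.18, SE; edgeR adjusted p = 0.00653). Fold over input was 3.47 and 3.04 against 13.6 and 15.3, and the centred difference did not pass (-0.68 ± 0.21, limma adjusted p = 0.0845). PRDX2, RNASEH2A and HOOK2 reach into the window, and HOOK2 had a centred difference of -1.002 toward pEF in its own window (limma adjusted p = 0.0403).

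JUND, the JUN gene known for steady rather than induced expression, had the smallest differences of the 8 in reads and in centred enrichment, though not in length. It stood highest of the 8 by fold over input in both pgEpiSC libraries, at 3.66 and 4.25, and in place 7 and 5 in pEF 1 and 2, at 11.6 and 12.2. The centred difference was -0.12 ± 0.23 (limma adjusted p = 0.737). Region chr2:59506801-59542200 held 4220 and 5479 ChIP reads in pgEpiSC and 10453 and 8886 in pEF, which did not pass (log2 fold change -0.58 ± 0.19, SE; edgeR adjusted p = 0.0571). With 1 library left out, the edgeR adjusted p was 0.00985 without pEF 2, 0.0693 without pEF 1, 0.257 without pgEpiSC 1 and 0.213 without pgEpiSC 4. Coverage was 21.2 kb and 20.4 kb in pgEpiSC against 17.0 kb and 16.8 kb in pEF, with no overlap (limma adjusted p = 0.0728).

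ATF3 is a stress-induced bZIP factor of the ATF group that also pairs with JUN proteins. It is the longest gene of the set at 57.4 kb, and read differences of both signs lay in its window. Coverage was 65.6 kb and 46.2 kb in pgEpiSC 1 and 4 and 37.4 kb and 34.6 kb in pEF 1 and 2, and did not pass (log2 fold change 0.60 ± 0.21, limma adjusted p = 0.114). The region beside the gene at lower coordinates, chr9:130761401-130771800, held 726 and 668 ChIP reads in pgEpiSC and 139 and 72 in pEF. Its read count was thus higher in pgEpiSC (log2 fold change 3.15 ± 0.46, SE, edgeR adjusted p = 0.00582). Reads were counted only inside islands, which here were longer in pgEpiSC. The islands covered 10.4 kb and 7.4 kb in pgEpiSC 1 and 4 against 2.2 kb and 0.6 kb in pEF 1 and 2. Whether reads differed beyond this difference in length was not tested for this region. FAM71A lies in that stretch, 4.21 kb from ATF3, and its own window was covered over 14.3 kb and 10.3 kb in pgEpiSC against 4.4 kb and 3.2 kb in pEF (limma adjusted p = 0.0342). Inside ATF3, region chr9:130778001-130818800 held 4051 and 2731 reads against 7948 and 7968 and did not pass (log2 fold change -0.77 ± 0.32, edgeR adjusted p = 0.105). At the far end, chr9:130825601-130856600 held 4025 and 4388 against 6334 and 6199 (log2 fold change -0.15 ± 0.18, edgeR adjusted p = 0.526). Fold over input across the window was 2.70 and 2.08 in pgEpiSC and 11.8 and 10.4 in pEF, and the centred difference was -0.76 ± 0.18 (limma adjusted p = 0.0489), lost without any 1 of the 4 libraries.

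**Figure D4:**
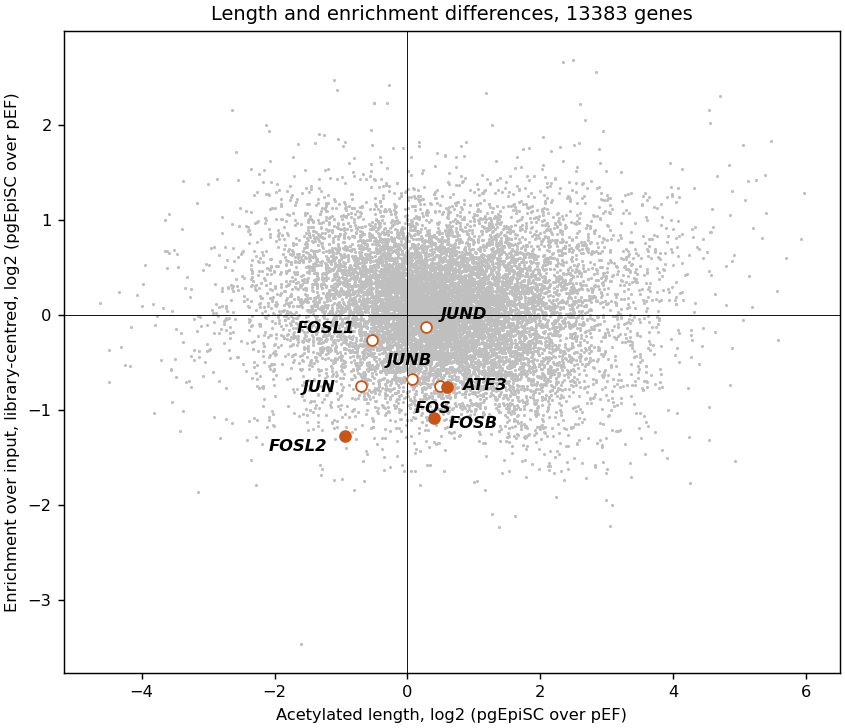
Difference in acetylated length (horizontal) and in centred enrichment over input (vertical), both log2 of pgEpiSC over pEF, for the 13383 genes with an island in every library. AP-1 members are circled and named, filled where the enrichment passed at an adjusted p of 0.05; all 8 lie under 0 on the vertical axis, FOSL2 lowest at -1.28, and on both sides of 0 on the horizontal axis.

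The order of the 8 loci was read within each library. By fold over input JUND, JUN, JUNB and FOS took the first 4 places in both pgEpiSC libraries, and FOSL2 the last. In pEF the lowest was FOSL1 in both libraries, JUN was second in both, and the top place went to FOS in pEF 1 and FOSB in pEF 2. In pEF 2 the values of FOSB and JUN both rounded to 16.3, so their order there was nearly a tie. In pEF 1 they were 12.1 at FOSB and 14.4 at JUN. Input reads per kb of island ranged from 33.4 to 50.2 over the 8 loci in pgEpiSC and from 34.7 to 44.4 in pEF.

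Other genes of the pathway were taken from 4 lists, and for those named here the limma adjusted p of length ranged from 0.00290 for NFE2L3 and ARC to 0.0476 for CEBPB. Of 24 related bZIP partners, 7 were covered over longer stretches in pgEpiSC, 1 in pEF and 16 did not pass (limma). Over all genes the shares were 31.9% longer in pgEpiSC and 10.9% in pEF, and by centred enrichment 7.35% higher in pgEpiSC and 5.81% in pEF. The counts of each of the 4 lists are to be read beside these shares. NFE2L3, a cap-n-collar bZIP factor, had 37.0 kb and 37.8 kb in pgEpiSC against 6.81 kb and 6.61 kb in pEF, and NRL, a photoreceptor bZIP factor, had 14.3 kb and 20.8 kb against 3.8 kb and 2.4 kb. The 1 longer in pEF was CEBPB, a C/EBP factor, at 8.2 kb and 5.8 kb in pgEpiSC against 14.1 kb and 14.3 kb in pEF. By centred enrichment 0 of the 22 measured were higher in pgEpiSC and 6 in pEF.

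Of 26 kinases and factors upstream of AP-1, 7 were longer in pgEpiSC, 2 in pEF and 17 did not pass. MAP2K4, which activates the JUN N-terminal kinases, had 50 kb and 49.4 kb in pgEpiSC against 4.2 kb and 9.0 kb in pEF. RPS6KA1, a ribosomal S6 kinase, had 18.6 kb and 18.8 kb against 5.4 kb and 4.8 kb, and BRAF, a kinase of the ERK cascade, 49.0 kb and 57.2 kb against 16.0 kb and 20.6 kb. The pair longer in pEF was PRKCA, a protein kinase C, at 54.4 kb and 43.8 kb in pgEpiSC against 112 kb and 87.0 kb in pEF, and ELK3, an ETS factor of the serum response, at 42.2 kb and 37.4 kb against 68.2 kb and 59.2 kb. By centred enrichment 1 of the 26 was higher in pgEpiSC and 0 in pEF.

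Other immediate early genes were split by length, with 5 of 29 longer in pgEpiSC, 5 in pEF and 19 not past the threshold. ARC, a regulator of synaptic plasticity, had 17.8 kb and 18.8 kb in pgEpiSC, while its pEF window was empty. EGR4, a zinc finger factor, had 5.6 kb and 5.19 kb against 1.8 kb and 0.8 kb, and TRIB1, a pseudokinase, 26.4 kb and 20.9 kb against 10.8 kb and 11.2 kb. Toward pEF, IER5 had 1.8 kb and 5.0 kb in pgEpiSC against 20.97 kb and 19.2 kb in pEF, GADD45A, a stress sensor of DNA damage, 11.1 kb and 7.4 kb against 22.4 kb and 20.6 kb, and KLF2, a Krüppel-like zinc finger factor, 7.8 kb and 7.6 kb against 16.6 kb and 18.2 kb. By centred enrichment 0 of 28 were higher in pgEpiSC and 8 in pEF.

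Of 18 classical AP-1 target genes, 1 was longer in pgEpiSC, 7 in pEF and 10 did not pass. VIM, encoding the intermediate filament vimentin, had 1.8 kb and 1.6 kb in pgEpiSC against 22.96 kb, its whole window, in each pEF library. PLAU, encoding urokinase, had 3.0 kb and 4.4 kb against 20 kb and 22.8 kb, and CXCL8, a chemokine, no island in pgEpiSC against 3.0 kb and 8.8 kb. The 1 longer in pgEpiSC was MMP3, a matrix metalloprotease, at 4.2 kb and 6.6 kb while pEF had none. By centred enrichment 2 of the 15 measured were higher in pgEpiSC and 7 in pEF. The median log2 fold change of length was 0.60 for the bZIP partners, 0.07 for the upstream genes, -0.14 for the immediate early genes and -0.71 for the targets, beside 0.46 over all genes. With each library centred, the numbers longer in pgEpiSC and pEF were 3 and 3, 3 and 8, 1 and 15, and 1 and 11, in the same order of lists. The centred shares over all genes were 22.8% longer in pgEpiSC and 24.6% in pEF.

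**Figure D5:**
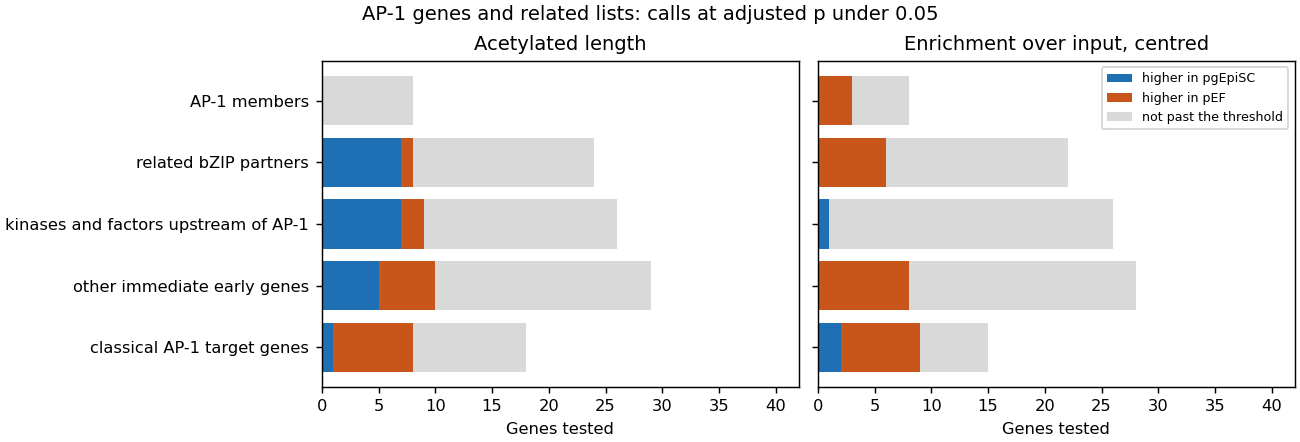
Numbers of genes per list that were higher in pgEpiSC, higher in pEF or not past an adjusted p of 0.05 by limma, for acetylated length (left) and centred enrichment over input (right). The AP-1 members have 0 calls by length and 3 toward pEF by enrichment, and the target genes have 7 toward pEF in each panel.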

How the data were processed

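The 4 island lists, 1 per H3K27ac library, were used as the authors deposited them. BWA 0.7.15, SAMtools 0.1.19 and SICER 1.1 are named per the submitters' processing notes; duplicate removal, mapping filters and the genome build are not given in the sources used here.

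With no header present, the 8 columns were read as those of a SICER summary. The start and end of each island were raised by 1, so that all positions given here count from 1. The deposited counts are whole ChIP and input reads per island. The deposited p-values and the FDR from them were used only to filter islands in an alternative. The deposited fold is the ratio of ChIP to input, scaled by 1 constant per library. The FDR column reached 1.00, so the lists hold islands at every FDR.

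Gene positions came from the RefSeq table of Sscrofa11.1. As a check of the build, gene ends were in islands at a higher rate than positions shifted by 20 kb on 19 of 19 chromosomes. The table gives no strand, so promoters were not told from gene ends. The length test was limma 3.58.1 (trended variance, log2 of kb plus a pseudocount of 1 kb). Enrichment was tested likewise on log2((ChIP + 1)/(input + 1)), the reads of an island being split by the share of its length in the window. Regions were merged at an overlap of at least 1 bp and tested by edgeR 4.0.16 (quasi-likelihood, TMM), where the SE is the log2 fold change over the root of F. Benjamini-Hochberg adjustment ran over all genes or regions, with 2 residual degrees of freedom before moderation. An exact permutation of 2 against 2 libraries cannot reach 0.05, so none was used. The fits and the interval sums were tested on simulated data.

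The named genes were the 8 members, the genes in their windows, and up to 3 per list and direction of those past the threshold, by size of log2 fold change. The result of 1 gene that this rule names is not reported here. The members and lists were chosen with earlier results of these data known. CCN1, CCN2, MRTFA and MRTFB were matched by older symbols, and NR4A1, HMOX1, MMP10 and KRT14 were not matched to a gene tested. Alternatives were other windows, pseudocounts, filters, centring, DESeq2 1.42.0 and leaving out each library. R 4.3.3, Python 3.11.15, numpy 2.4.6, pandas 2.3.3 and matplotlib 3.10.9 were used.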

Additional observations from a re-analysis of the deposited data

How the results depend on the processing

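Numbers are given as higher in pgEpiSC, then higher in pEF. By length, the AP-1 members numbered 0 and 0 as reported, 0 and 1 with windows of 5 kb, a pseudocount of 0.2 kb or islands with an FDR under 1e-10, 0 and 2 where genes averaging under 1 kb were dropped, 1 and 2 with windows of 25 kb, and 0 and 4 with centring. Over all genes the counts were 5196 and 1773 as reported. They were 4719 and 1657 with windows of 5 kb, 6160 and 1913 with windows of 25 kb, and 4979 and 1673 with the pseudocount of 0.2 kb. Islands with an FDR under 1e-10 gave 3606 and 2049, and centring gave 3583 and 3853. Dropping genes averaging under 1 kb gave 5794 and 1963, and also changed the number of genes tested. The counts were 1150 and 2692 when islands under 2-fold enrichment were dropped. Centring turned the log2 fold change to -0.14 at FOS, -0.23 at FOSB, -0.57 at JUNB, -0.35 at JUND and -0.030 at ATF3. It turned to 0.070 at FOSL1 with windows of 25 kb, to -0.047 at ATF3 with the 2-fold filter, and to -0.0053 at JUNB with either filter on islands. Leaving out each library in turn gave 0 and 0 to 1 members (FOSL2, without pgEpiSC 1), and 1684 to 2188 and 548 to 829 genes.

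By ChIP reads, the members numbered 0 and 6 by edgeR with either scaling, by DESeq2, among regions of at least 500 reads and with islands within 1 kb merged, and 0 and 5 with the 2-fold filter, where FOSL2 had no region to test and the other 5 stayed. All regions numbered 4649 and 4790, 1639 and 1692 at 500 reads or more, and 2388 and 2269 with the 2-fold filter. These filters also changed the number of regions tested, which is not given here. The other scaling gave 4683 and 4746, DESeq2 5299 and 5286, and islands within 1 kb merged 4476 and 4587. Leaving out each library gave 0 and 2 to 7 members, and 1882 to 5130 and 1993 to 4974 regions. Direction held at every member tested.

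By enrichment, the members numbered 0 and 3, 0 and 4 with windows of 5 kb or a pseudocount of 10 reads, 0 and 5 among genes of at least 500 reads, and 0 and 8 without centring, when all genes numbered 14 and 12480. Over all genes the counts were 984 and 777 as reported, 985 and 716 with windows of 5 kb, and 1217 and 900 with the pseudocount of 10 reads. With an FDR under 1e-10 they were 728 and 499. Among genes of at least 500 reads they were 1140 and 788, out of a changed number tested that is not given here. Leaving out each library gave 0 and 0 to 2 members, and 0 to 1532 and 0 to 1051 genes; JUND ranged from -0.31 to 0.059, the highest without pgEpiSC 1. No cause of these changes was tested. With 1 library left out, the spread of its type's remaining library is assumed equal to that of the other cell type. No paired analysis was possible because the H3K27ac libraries of the 2 types share only the replicate number 1.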

Other observations

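Beyond the windows, from 10 kb to 100 kb on either side of each gene, JUN stood apart from the other members by value. In these 180 kb of flank, islands covered 14.0 kb and 10.8 kb in pgEpiSC 1 and 4 and 70.6 kb and 54.4 kb in pEF 1 and 2. FOS had the opposite order, with 101 kb and 104 kb in pgEpiSC against 43.1 kb and 54.8 kb in pEF, and so did FOSL1, with 93.8 kb and 92.8 kb against 46.4 kb and 45.0 kb, and JUNB, with 49.1 kb and 41.9 kb against 25.9 kb and 20.6 kb. FOSB shared that order, with 78.4 kb and 84.0 kb in pgEpiSC against 65.2 kb and 54.8 kb in pEF. So did JUND, with 89.4 kb and 87.2 kb against 65.4 kb and 48.2 kb, and ATF3, with 114 kb and 85.6 kb against 78.7 kb and 76.5 kb. FOSL2 was nearly even, with 52.6 kb and 50.4 kb in pgEpiSC against 56.7 kb and 54.7 kb in pEF, although its own window differed most in reads. Over the whole genome islands covered 408 Mb and 414 Mb in pgEpiSC 1 and 4 against 273 Mb and 275 Mb in pEF 1 and 2. The share of all genes with either order in such flanks was not computed. Fold over input in the flanks was higher in both pEF libraries at every member, as at FOS with 2.38 and 2.29 against 10.4 and 10.5. In the flanks of JUN it was 2.47 and 2.86 in pgEpiSC and 4.90 and 4.67 in pEF, which was lower than in its window in both types. These flank values were read after the windows had been described, and were not tested.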
